A study of Homo sapiens with 42 samples.

Results

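In 2 lymphoma cell lines, 57 rows of the deposited expression tables rose and 35 fell with both of 2 short hairpin RNAs against MALT1. These 92 rows were taken from the 12303 rows that passed a filter on low values, of 23250 rows in each file. A row is one numbered gene model, and the files pair none of the numbers with a gene name. The rows were chosen by their measured levels in the 18 knockdown libraries: a row needed a CPM (read count scaled to a common library total) of at least 1 in 3 or more of them. For each hairpin and line, the change was the median of log2(CPM + 1) in the hairpin group minus that in the same line's control group. Rows were kept when the change was at least 0.3 in all 4 hairpin comparisons (raised rows) or -0.3 or less in all 4 (lowered rows). The knockdown values of these rows are therefore a description with no test. The libraries treated with a MALT1 inhibitor were not used by the rule, and the tests below rest on those.

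MALT1 is a protease of the paracaspase family that acts downstream of the B-cell receptor. It acts as a scaffold that recruits activators of the NF-kappa-B pathway, and as an enzyme that cleaves negative regulators of that pathway and of mRNA stability. The activated B cell-like type of diffuse large B-cell lymphoma is known for its dependence on this signalling. A hairpin lowers the whole protein, whereas a covalent inhibitor leaves the protein in place and blocks its enzyme activity.

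Both lines, OCI-Ly3 and TMD8, are established lines of this lymphoma type, and their RNA was sequenced in 42 libraries that form 14 groups of 3. In the knockdown experiment each line was infected with a lentivirus carrying a non-targeting hairpin (shCntrl), MALT1 hairpin 1 (sh1) or MALT1 hairpin 2 (sh2), which gave 6 groups. In the compound experiment each line was treated with the solvent DMSO or with 100 nM of compound 3, which the series describes as a covalent MALT1 inhibitor, for 8 h or 24 h, which gave 8 groups. Every hairpin group, controls included, was infected with lentivirus, and every compound group, controls included, was exposed to DMSO or compound in culture. The labels give neither the time after infection nor any selection of infected cells, and they do not say whether replicates were separate cultures. The p-values thus measure the spread between these libraries, which may be technical. The row that holds MALT1 is not known, so the depth of the knockdown is not reported, and the lines could not be checked against marker genes. For the same reason no pathway list and no sequence of a row is given.

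The libraries held 15.82 to 19.39 M reads in the rows in the knockdown and 23.28 to 31.58 M in the compound experiment. A CPM of 1 stood for 20.51 to 24.46 reads in the first and 32.26 to 40.89 in the second. Row numbers appeared to have one meaning in both experiments: across rows, the levels of a line's controls correlated at a Spearman rho of 0.966 (OCI-Ly3) and 0.967 (TMD8) between the experiments, against 0.922 and 0.925 between the lines. Replicate 1 of the OCI-Ly3 shCntrl group stood apart. It differed by more than 1 on the log2 scale from the mean of its group's other libraries in 1168 rows, against 171 and 147 for replicates 2 and 3 and 0 for each TMD8 control. Among the TMD8 libraries at 8 h, replicate 1 stood apart in both groups, with 544 such rows in DMSO and 556 with compound 3.

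The rows moved alike in both lines were a small part of those that moved in either. With both hairpins, 818 rows rose and 556 fell by at least 0.3 in OCI-Ly3, and 288 rose and 455 fell in TMD8. The 57 raised rows were 6.97% of the OCI-Ly3 list and 19.8% of the TMD8 list. The 35 lowered rows were 6.29% and 7.69% of the corresponding lists. A further 51 rows rose with both hairpins in OCI-Ly3 and fell with both in TMD8, nearly as many as rose in both, while 6 rows moved the other way round. The single comparisons differed in how many rows passed the size limit. In OCI-Ly3, 9.27% of the rows rose and 7.53% fell with sh1, and 25.1% rose and 25.3% fell with sh2. In TMD8 the shares were 8.32% and 7.09% with sh1, and 7.74% and 8.62% with sh2. The share of all reads that lay in the rows was lower with sh2 in OCI-Ly3 (74.1% ± 0.594, SD, n = 3) than in its controls (78.6% ± 0.627), and higher with both hairpins in TMD8 (77.5% ± 0.782 and 76.9% ± 0.663) than in its controls (74.9% ± 0.324). With the libraries rescaled by the median of their ratios over rows, the rule gave 47 raised rows, 44 of them among the 57. It gave 38 lowered rows, 32 of them among the 35. Apart from this rerun, the part of the share of reads in the changes was not tested.

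Without replicate 1 of the OCI-Ly3 controls the rule gave 53 raised rows, 49 of them among the 57, and 33 lowered rows, 29 of them among the 35. Many rows lay close to the limit. The raised rows just inside it had a smallest change of 0.3002, 0.3012 and 0.3038, and those just outside 0.2999, 0.2931 and 0.2931. The lowered rows just inside had -0.3023, -0.3094 and -0.3136, and those just outside -0.2985, -0.2932 and -0.2891. Within 0.05 of the limit there were 27 raised rows inside and 36 outside, and 13 lowered rows inside and 23 outside.

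The raised rows moved further in OCI-Ly3 than in TMD8. Their median change was 0.553 with sh1 (range 0.301 to 3.29) and 0.74 with sh2 (0.325 to 5.51) in OCI-Ly3, and 0.422 (0.3 to 0.709) and 0.49 (0.314 to 1.69) in TMD8. A change of 1 or more, a doubling on this scale, was reached by 6 and 18 of the 57 rows in OCI-Ly3 and by 0 and 6 in TMD8. Of all 12303 rows, 44 and 434 reached it in OCI-Ly3 and 3 and 21 in TMD8. The difference between the lines is thus not particular to the raised rows. In 26 rows both OCI-Ly3 changes exceeded both TMD8 changes, and in 5 rows the reverse held. The second hairpin moved the row further than the first in 42 of 57 rows in OCI-Ly3 and in 39 in TMD8. No raised row reached 1 in all 4 comparisons, 7 reached 0.5 in all 4, and 19 reached 1 in at least 1.

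**Figure D1:**
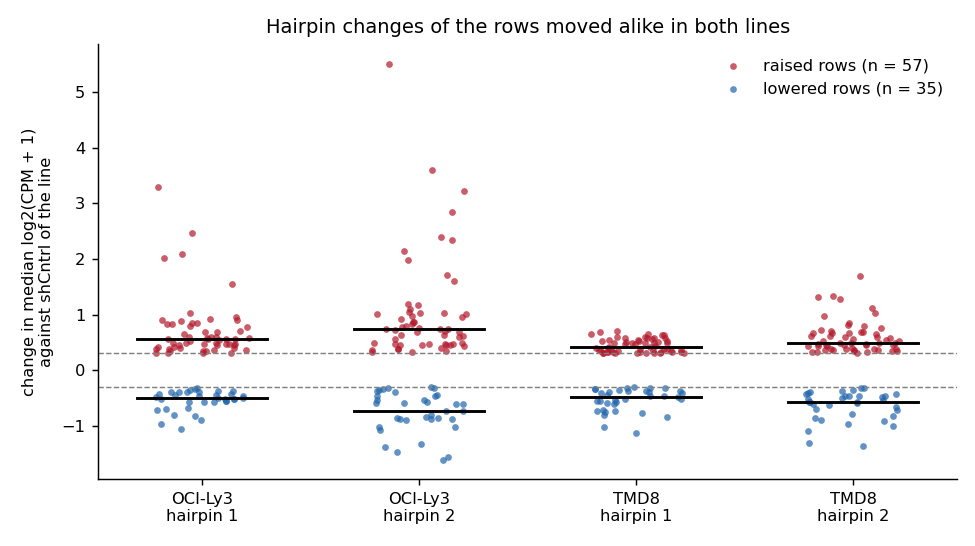
Change of each of the 57 raised rows (red) and 35 lowered rows (blue) with each MALT1 hairpin, as the difference in group median log2(CPM + 1) from the non-targeting control of the line; points are rows, black bars are medians over rows, and dashed lines mark the limit of 0.3 in either direction. The raised rows spread up to 5.51 with hairpin 2 in OCI-Ly3, whereas none passed 0.709 with hairpin 1 in TMD8.

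The lowered rows kept closer together. Their median change was -0.496 with sh1 (range -1.06 to -0.322) and -0.727 with sh2 (-1.61 to -0.309) in OCI-Ly3, and -0.487 (-1.13 to -0.302) and -0.569 (-1.37 to -0.314) in TMD8. A change of -1 or less was reached by 1 and 8 of the 35 rows in OCI-Ly3 and by 2 and 3 in TMD8. Of all 12303 rows, 19 and 192 reached it in OCI-Ly3 and 16 and 38 in TMD8. Both OCI-Ly3 changes were larger in size than both TMD8 changes in 8 rows, and the reverse held in 5. As with the raised rows, sh2 moved the row further than sh1 in most cases, in 25 of 35 rows in each line.

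The separation of the libraries was a second description of the same data. Of the 57 raised rows, 49 had all 3 sh1 libraries above all 3 controls in OCI-Ly3 and 47 had all 3 sh2 libraries above them, where 17.1% and 25.4% of all 12303 rows did. In TMD8 the counts were 54 and 42, beside 25.7% and 20.7% of all rows. Of the 35 lowered rows, 24 with each hairpin had all libraries below the controls in OCI-Ly3, beside 17.7% and 25.1% of all rows, and 32 and 35 did in TMD8, beside 17.3% and 15.7%. Groups did not overlap in any of the 4 comparisons for 35 raised rows, where 1.63% of all rows met this, and for 19 lowered rows, where 0.821% did. Since the rule chose these rows on the same libraries, nothing is read from the counts.

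The raised rows had a median level like that of all rows, with fewer low rows in TMD8, and the lowered rows had a lower median. In the shCntrl libraries the raised rows had a median level of 24.2 CPM in OCI-Ly3 (middle 50% of rows, 6.92 to 44.5) and 23.7 CPM in TMD8 (12.9 to 49.3), beside 23.2 and 22.8 CPM over all 12303 rows. The lowered rows had 8.56 CPM (3.34 to 21.5) and 5.68 CPM (3 to 24.8). Under 5 CPM in the controls lay 31.4% of the lowered rows in OCI-Ly3 and 45.7% in TMD8, against 22.5% and 23.4% of all rows. Of the raised rows, 19.3% and 10.5% did, and their lower quartile in TMD8 was 12.9 CPM against 5.76 CPM over all rows. On the log2(CPM + 1) scale, the added 1 makes the changes of such low rows smaller than their ratios.

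Row 14814, the raised row whose smallest change was largest, had 1.32, 8.4 and 7.63 CPM in the OCI-Ly3 controls. It had 35.8, 37.0 and 31.8 CPM with sh1 and 58.5, 42.5 and 19.7 CPM with sh2 there. In TMD8 it had 30.6, 36.0 and 41.5 CPM in the controls, 52.9, 64.1 and 58.6 CPM with sh1, and 71.9, 34.6 and 57.0 CPM with sh2. The groups did not overlap in OCI-Ly3 or with sh1 in TMD8, while sh2 replicate 2 in TMD8 lay among the controls. The changes were 2.09, 2.33, 0.69 and 0.65 in the order OCI-Ly3 sh1, OCI-Ly3 sh2, TMD8 sh1 and TMD8 sh2. Without TMD8 sh2 replicate 1 the last of these was 0.296, under the limit.

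Row 14336, named because its p-value with compound 3 in OCI-Ly3 at 24 h was the smallest of the other raised rows, had a higher level and smaller hairpin changes. It had 159, 129 and 138 CPM in the OCI-Ly3 controls, 226, 223 and 218 CPM with sh1, and 231, 220 and 253 CPM with sh2. In TMD8 it had 273, 273 and 292 CPM in the controls, 323, 341 and 348 CPM with sh1, and 385, 376 and 376 CPM with sh2. The hairpin libraries lay above all controls in all 4 comparisons. The changes were 0.69, 0.74, 0.32 and 0.46 in the same order, and the third fell to 0.271 without TMD8 control replicate 1 and to 0.273 without replicate 2, under the limit. It was under the limit as well without TMD8 sh1 replicate 2 (0.293) or replicate 3 (0.279).

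Row 3516, the lowered row whose smallest change was largest, was near the floor of the filter. It had 22.1, 0.988 and 1.68 CPM in the OCI-Ly3 controls, 0.654, 0.772 and 0.536 CPM with sh1, and 0.273, 0.447 and 0.578 CPM with sh2. The first control library was far above the other two, and the hairpin libraries were still below all 3 controls. In TMD8 it had 4.2, 3.35 and 4.73 CPM in the controls, 2.85, 2.14 and 2.1 CPM with sh1, and 1.01, 0.816 and 1.29 CPM with sh2, with no overlap. The changes were -0.70, -0.89, -0.73 and -1.37, and without the first OCI-Ly3 control library the first of these was -0.482.

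Row 11015, named for its p-value with compound 3 among the lowered rows, fell most with sh2. It had 30.6, 19.2 and 27.0 CPM in the OCI-Ly3 controls, 15.9, 16.8 and 16.6 CPM with sh1, and 9.64, 8.09 and 8.18 CPM with sh2. In TMD8 it had 31.4, 32.4 and 31.4 CPM in the controls, 23.7, 26.3 and 24.7 CPM with sh1, and 16.5, 14 and 16.3 CPM with sh2. The groups did not overlap, and in both lines every sh2 library was below every sh1 library. The changes were -0.67, -1.61, -0.34 and -0.90, and without TMD8 sh1 replicate 1 the third was -0.293, short of the limit.

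**Figure D2:**
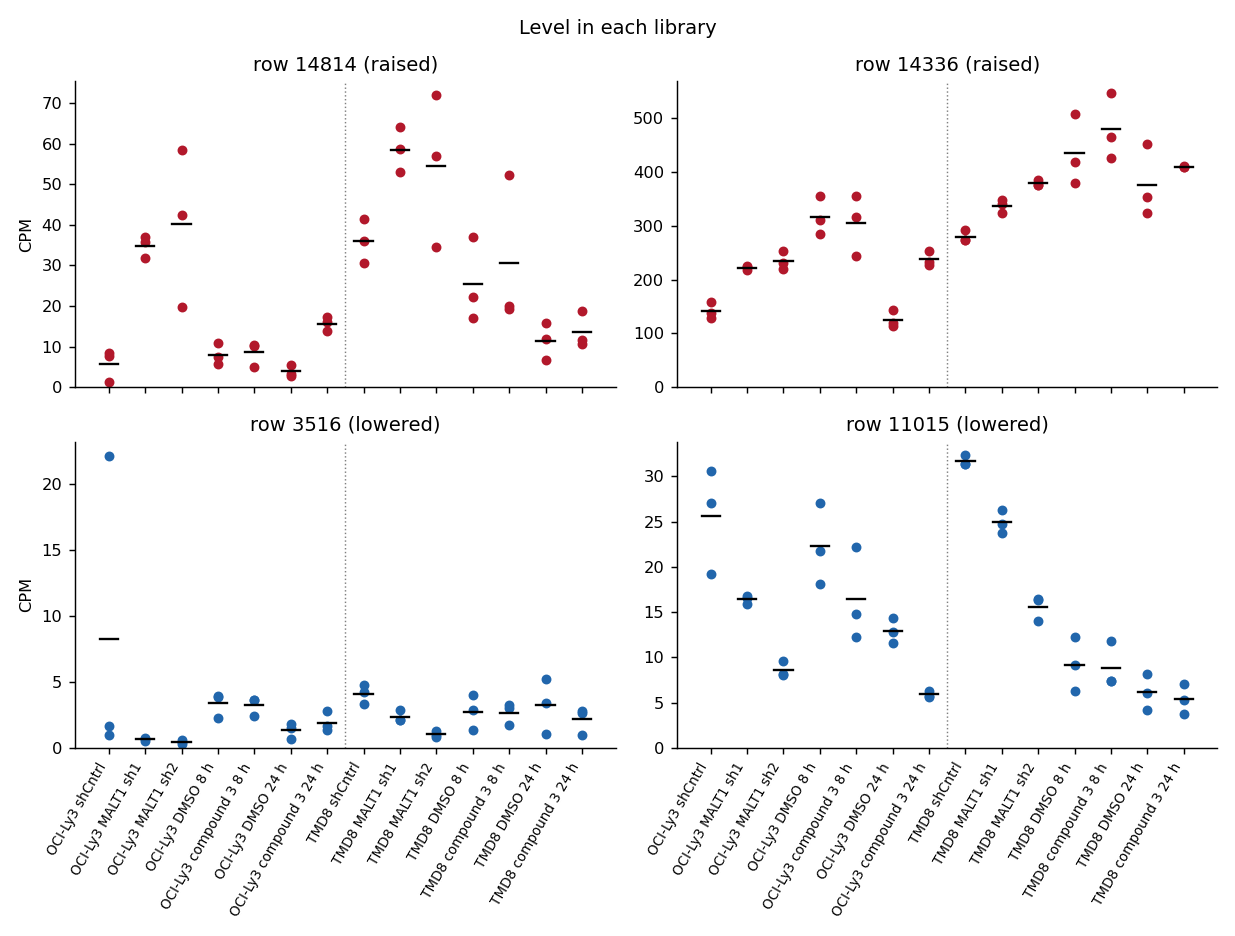
Level (CPM, linear axes that start at 0) of the 4 named rows in each of the 42 libraries by group; points are libraries, black bars are means of 3, and a dotted line parts OCI-Ly3 on the left from TMD8. In OCI-Ly3 at 24 h the 3 compound 3 libraries of row 14814 (13.9 to 17.2 CPM) lay above the 3 DMSO libraries (2.88 to 5.55 CPM), those of row 14336 likewise, and those of row 11015 below them.

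The compound experiment addressed whether blocking the enzyme moved the same rows. All 92 rows were among the 12589 that passed the filter there (at least 1 CPM in 3 or more of the 24 libraries). Differences were tested with limma on log2(CPM + 1) over these rows, with Benjamini-Hochberg adjusted p-values over all of them, and a row was called at an adjusted p below 0.05.

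In OCI-Ly3 after 24 h with compound 3, most raised rows lay on the same side of 0 as with the hairpins. Of 57 rows, 6 (10.5%) were called higher, where 0.651% of all 12589 rows were, and 0 were called lower, where 0.119% of all rows were. The median change was 0.179 on the log2 scale (middle 50% of rows, 0.0561 to 0.334; range -0.238 to 2.22), beside 0.001 over all rows. The change lay above 0 in 48 rows (84.2%), against 50.2% of all rows. A change of 0.5 or more was reached by 11 of the 57 (19.3%), against 2.65% of all rows, and 0 reached -0.5. All 3 compound 3 libraries lay above all 3 DMSO libraries in 20 rows, where 9.17% of all rows did, and below them in 2 rows, where 11.2% did. At an unadjusted p below 0.05, 13 rows were higher and 0 lower, beside 4.89% and 3.25% of all rows.

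The count of called rows depended on single libraries and on the fit, while most rows lay above 0 in each fit. Without compound 3 replicate 2 only 1 of the 6 rows was still called. Without compound 3 replicate 3, or without any one of the DMSO replicates, 2 were, and without compound 3 replicate 1, 5 were. In the same 6 fits the change lay above 0 in 41 to 49 rows, and the median ran from 0.12 to 0.227. With the replicate number as a block, 15 raised rows were called higher, the 6 among them, where 5.39% of all rows were. Among rows chosen without replicate 1 of the OCI-Ly3 controls, 6 of 53 were called higher and 42 lay above 0.

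Row 14336 had 120, 143 and 113 CPM with DMSO (125 ± 15.6, SD, n = 3) and 227, 253 and 233 CPM with compound 3 (238 ± 13.7) in OCI-Ly3 at 24 h. The compound libraries were all above the DMSO libraries, with a log2 change of 0.92 (SE 0.150, adjusted p = 0.00356). It was called in each of the 16 alternative fits, with an adjusted p of 1.78e-05 to 0.0349. At 8 h the same row had 355, 284 and 311 CPM with DMSO and 355, 244 and 317 CPM with compound 3, so the groups overlapped there.

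Row 14814 had 5.55, 3.26 and 2.88 CPM with DMSO (3.9 ± 1.45) and 13.9, 16 and 17.2 CPM with compound 3 (15.7 ± 1.69) in OCI-Ly3 at 24 h. The log2 change was 1.81 (SE 0.371, adjusted p = 0.0192). With 1 library left out it was called in 2 of 6 fits, with an adjusted p of 0.0352 to 0.117. At 8 h it had 10.8, 5.85 and 7.48 CPM with DMSO and 10.2, 5.1 and 10.5 CPM with compound 3, which overlapped.

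The other 4 called rows were mostly low in the OCI-Ly3 DMSO libraries at 24 h. The first had 1.82, 1.61 and 1.61 CPM there and 10.2, 12.4 and 12 CPM with compound 3, a log2 change of 2.22 (adjusted p = 0.0153). The second had 0.203, 0.85 and 0.547 CPM and rose to 4.22, 5.11 and 9.91 CPM, a log2 change of 2.22 (adjusted p = 0.0316). The third had 0.203, 0.425 and 0.317 CPM and rose to 2.55, 4.06 and 3.57 CPM, a log2 change of 1.73 (adjusted p = 0.0114). The fourth, of a higher level, had 15.6, 22.9 and 19.3 CPM and rose to 52.0, 65.1 and 89.0 CPM, a log2 change of 1.76 (adjusted p = 0.0427). In none of the 6 called rows did the groups overlap.

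These 4 rows and row 14814 were among the 7 raised rows whose mean change with the 2 hairpins in OCI-Ly3 was 1.5 or more. The second of the 4 held the largest change of all, from 0.0853, 0.247 and 0.177 CPM in the OCI-Ly3 controls to 10.5, 10.3 and 12.5 CPM with sh1 and 52.6, 73.3 and 37.5 CPM with sh2. In the first of the 4 the OCI-Ly3 controls had 0.64, 3.29 and 3.02 CPM, the sh1 libraries 22.1, 21.1 and 16 CPM, and the sh2 libraries 47.6, 36.5 and 11.9 CPM. In all 5 of these rows the lowest OCI-Ly3 control was replicate 1, the library that stood apart. The rule took the median of the controls, and all 6 called rows were also members without that library.

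Across the 57 raised rows, the mean change with the 2 hairpins and the change with compound 3 in OCI-Ly3 at 24 h had a Pearson correlation of 0.86 and a Spearman correlation of 0.40. Without the 7 rows whose mean hairpin change was 1.5 or more, the values over the 50 others were 0.23 and 0.12, over a narrower range of hairpin changes. In TMD8 at 24 h they were 0.58 and 0.40 over the 57 rows. They were 0.23 and 0.17 there without the 6 rows of largest mean hairpin change. Over the 35 lowered rows they were 0.25 and 0.21 in OCI-Ly3 and 0.12 and 0.12 in TMD8 at 24 h. The 20 raised rows that reached 0.6 with both hairpins in OCI-Ly3, a limit chosen after the values were seen, had a median compound change of 0.321, with 18 above 0 and all 6 called rows among them. The other 37 had a median of 0.138, with 30 above 0 and 0 called.

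**Figure D3:**
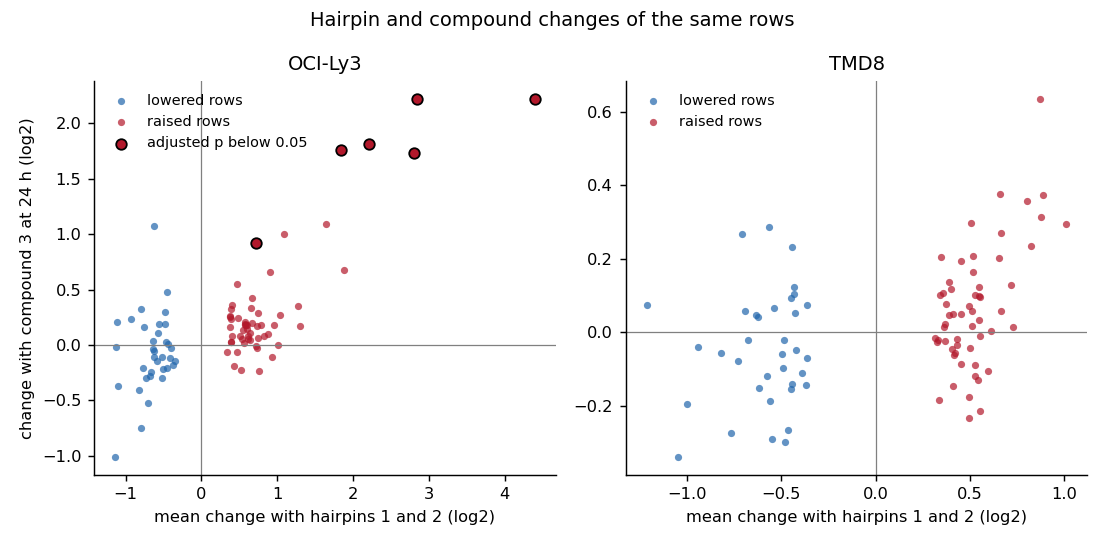
Change with compound 3 at 24 h (vertical axis, log2) against the mean change with the 2 hairpins (horizontal axis, log2) in OCI-Ly3 (left) and TMD8 (right; the axes differ in range); points are the 57 raised rows (red) and 35 lowered rows (blue), and black rims mark rows with an adjusted p below 0.05. The 6 rimmed points lie in OCI-Ly3, with compound changes of 0.92 to 2.22, and no TMD8 row exceeded 0.636.

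The lowered rows did not pass the limma test without a block in OCI-Ly3 at 24 h. Of 35 rows, 0 were called higher and 0 lower in limma, and 0 in edgeR, and DESeq2 called 1 in each direction, where 1.06% and 0.421% of all rows were called higher and lower. At an unadjusted p below 0.05, 2 were higher and 2 lower (5.71% each), beside 4.89% and 3.25% of all rows. The median change was -0.105 (range -1.01 to 1.07), with 22 of 35 rows (62.9%) below 0. Without DMSO replicate 3 the median was 0.00287 and 18 rows lay above 0. All compound 3 libraries lay below all DMSO libraries in 6 rows (17.1%), where 11.2% of all rows did, and above them in 3 (8.57%), where 9.17% did. With the replicate block 6 rows (17.1%) were called lower and 2 (5.71%) higher, beside 3.69% and 5.39% of all rows. The lowered rows thus held changes in both directions, including 1 row at 1.07.

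Row 11015 held the largest fall of the lowered rows. It had 14.4, 11.6 and 12.8 CPM with DMSO (12.9 ± 1.39) and 5.78, 5.65 and 6.31 CPM with compound 3 (5.91 ± 0.351) in OCI-Ly3 at 24 h, with no overlap. The log2 change was -1.01 (SE 0.255, adjusted p = 0.0784), which missed the threshold. It passed in 4 of 10 other settings (adjusted p of 4.39e-05 to 0.119) and in 0 of the 6 fits with 1 library left out. At 8 h it had 27.1, 18.1 and 21.8 CPM with DMSO and 22.2, 12.2 and 14.8 CPM with compound 3, which overlapped.

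Row 3516 did not follow the hairpins in OCI-Ly3. It had 1.52, 1.81 and 0.691 CPM with DMSO and 1.35, 2.79 and 1.62 CPM with compound 3 at 24 h, a log2 change of 0.32 (SE 0.354, adjusted p = 0.954). In TMD8 it had 5.25, 3.4 and 1.05 CPM with DMSO and 2.67, 2.8 and 0.994 CPM with compound 3, a log2 change of -0.34 (SE 0.354, adjusted p = 1).

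**Figure D4:**
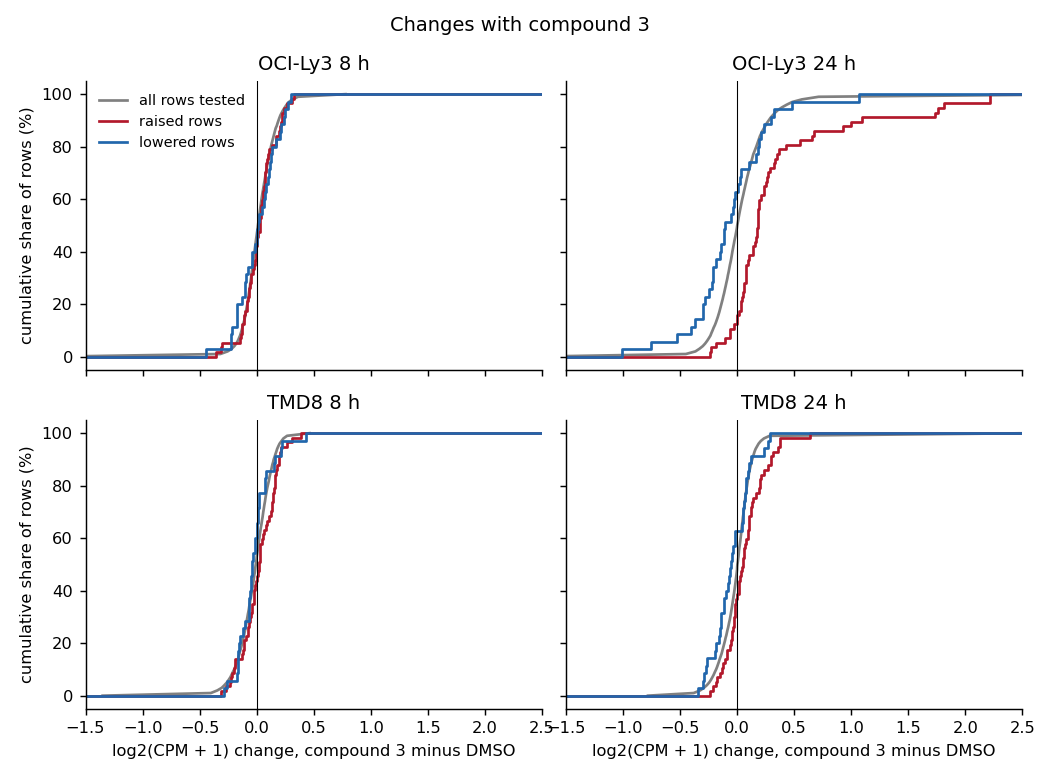
Cumulative share of rows (vertical axis, %) by log2(CPM + 1) change with compound 3 against DMSO (horizontal axis, drawn from -1.5 to 2.5) in each line and time, for the 57 raised rows (red), the 35 lowered rows (blue) and all 12589 rows tested (grey, by percentile). In OCI-Ly3 at 24 h the red curve lies to the right of the grey one, with a median of 0.179 against 0.001, and the other panels hold medians within 0.06 of 0.

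At 8 h no row of either list passed the test. In OCI-Ly3, 0 of the 57 raised and 0 of the 35 lowered rows were called in limma, edgeR or DESeq2, where limma called 0% of all rows higher and 0.0397% lower. At an unadjusted p below 0.05, 1 raised row was lower, beside 0.763% of all rows. The raised rows had a median change of 0.027, with 31 of 57 above 0, and the lowered rows 0.0142, with 19 of 35 above 0. In TMD8 at 8 h, limma, edgeR and DESeq2 called 0 rows of either list, and limma called 0% of all rows. An unadjusted limma p below 0.05 was reached by 0 members, beside 0.0953% of all rows higher and 0.945% lower. The medians were 0.0242 with 31 of 57 above 0, and -0.043 with 14 of 35 above 0. Without both libraries numbered 1, which stood apart, 0 members were called there as well.

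In TMD8 at 24 h, 0 of the 57 raised rows and 0 of the 35 lowered rows were called in limma, edgeR or DESeq2, and 0% of all rows were called in limma. The raised rows had a median change of 0.0498, and 36 of 57 (63.2%) lay above 0, beside 51.3% of all rows. With 1 library left out, 27 to 41 rows lay above 0 and the median ran from -0.0144 to 0.0781. At an unadjusted p below 0.05, 1 raised row was higher, beside 0.27% of all rows, with a change of 0.636 (SE 0.303), and it had a change of 0.0617 in OCI-Ly3. The lowered rows had a median of -0.0577, with 13 of 35 above 0. At an unadjusted p below 0.05 there were 0 of them, beside 0.27% of all rows higher and 0.461% lower. The 6 rows called in OCI-Ly3 all lay above 0 in TMD8, between 0.137 and 0.378. Row 14814 had 11.8, 6.63 and 15.8 CPM with DMSO and 10.7, 11.6 and 18.7 CPM with compound 3 in TMD8, which overlapped. Row 14336 had 452, 323 and 354 CPM with DMSO and 411, 409 and 409 CPM with compound 3, which overlapped as well.

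The changes with compound 3 at 24 h in the 2 lines share no library, so their directions could be set side by side. Of the 57 raised rows, 32 (56.1%) lay above 0 in both lines and 5 (8.77%) below 0 in both, where 26.6% and 25.4% of the 12038 rows that passed both filters did. In single lines, 84.2% of the raised rows lay above 0 in OCI-Ly3 and 63.2% in TMD8. Whether the lines agreed beyond these shares was not tested. Of the 35 lowered rows, 18 (51.4%) lay below 0 in both lines and 9 (25.7%) above 0 in both.

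The difference between the lines was tested as the compound 3 change in OCI-Ly3 minus that in TMD8 at 24 h. In limma, 0 of the 57 raised and 0 of the 35 lowered rows were called, where 0.00794% of all rows were higher and 0.0159% lower, and edgeR and DESeq2 called 0 members. At an unadjusted p below 0.05, 7 raised rows were higher and 0 lower, beside 2.03% and 1.08% of all rows. The median difference of the raised rows was 0.161, with 46 of 57 above 0. It was 0.79 for row 14336 (SE 0.212, adjusted p = 0.514) and 1.53 for row 14814 (SE 0.525, adjusted p = 1). Although 6 raised rows passed the test in OCI-Ly3 and 0 in TMD8, the difference between the lines passed the test for no row in the fit without a block. The lowered rows had a median difference of -0.0272, with 1 row higher and 1 lower at an unadjusted p below 0.05. With the replicate block, 6 raised rows were called higher for this difference, beside 1.41% of all rows, and 1 lowered row in each direction. Of the TMD8 libraries at 24 h, however, those numbered 3 alone deviated together.

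**Figure D5:**
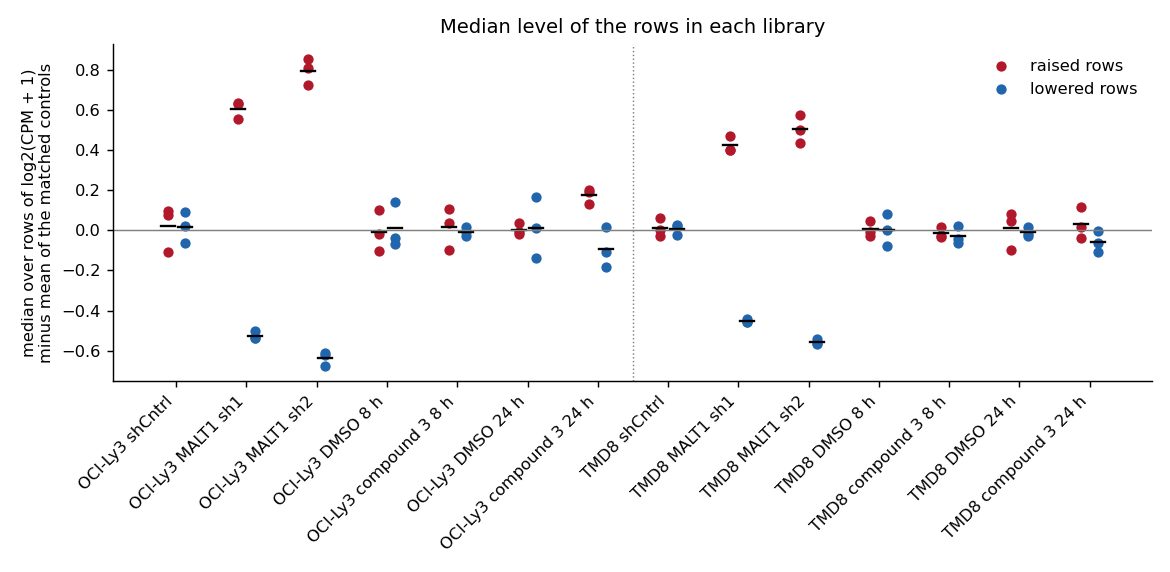
Median over the 57 raised rows (red) and the 35 lowered rows (blue) of log2(CPM + 1) minus the mean of the matched controls (shCntrl of the line, or DMSO of the line and time), in each of the 42 libraries; points are libraries, black bars are means of 3, and a dotted line parts OCI-Ly3 from TMD8. The hairpin libraries were used to choose the rows, and of the compound 3 groups the one of OCI-Ly3 at 24 h lies above its DMSO libraries for the raised rows.

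Taken library by library, the raised rows of OCI-Ly3 had a median of 0.034, -0.02 and -0.008 in the DMSO libraries at 24 h, relative to their mean, and of 0.19, 0.202 and 0.132 in the compound 3 libraries. The median in each compound 3 library was thus above that in each DMSO library, with 49, 49 and 44 of the 57 rows above the DMSO mean. The size was smaller than in the hairpin libraries of the same line, where the medians were 0.631, 0.632 and 0.553 with sh1 and 0.852, 0.811 and 0.722 with sh2, values that chose the rows. In TMD8 at 24 h the DMSO libraries had 0.083, -0.098 and 0.046 and the compound 3 libraries 0.016, -0.04 and 0.115, which overlapped. For the lowered rows in OCI-Ly3 at 24 h the DMSO libraries had 0.012, -0.136 and 0.164 and the compound 3 libraries -0.184, -0.106 and 0.014, which overlapped too.

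Rows moved by the hairpins in 1 line alone were compared with the rows moved alike in both, with no test. The 676 tested rows that rose with both hairpins in OCI-Ly3, but not with both in TMD8 nor fell with both there, had a median compound 3 change of 0.21 in OCI-Ly3 at 24 h, with 6.36% called higher. The 50 tested rows that rose in OCI-Ly3 and fell in TMD8 had a median of 0.272 with 2% called higher, and the 222 that rose in TMD8 alone had 0.0268 with 0% called. The median of the 57 rows, 0.179, was thus no higher than the medians of both lists that rose in OCI-Ly3 without rising in TMD8, while their called share, 10.5%, was above the 6.36% and 2% there. That share rested on 6 rows, and with 1 library left out 1 to 5 rows were called. The shares above 0 were alike, at 84.2% for the 57 rows and 82.1% and 82% for these 2 lists. In TMD8 at 24 h the medians of the same 4 lists were 0.0498 for the 57 rows, 0.0126 for those raised in OCI-Ly3 alone, -0.0258 for those that fell in TMD8, and 0.0437 for those raised in TMD8 alone. Among lowered rows, the 505 tested rows that fell in OCI-Ly3 alone had a median of -0.179 in OCI-Ly3 at 24 h, with 83.8% below 0, against -0.105 and 62.9% for the 35 rows.

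Comparisons of time in culture without compound called few raised rows, at shares near those of all rows in the fit without a block. The share that fell by 0.5 or more was larger among raised rows than among all rows in both lines. These comparisons share the DMSO libraries with those of compound 3, so they are given as values only. In OCI-Ly3 with DMSO, 24 h against 8 h, 0 raised rows were called higher and 2 lower, where 0.921% and 2.26% of all rows were. The median change was -0.12, 17 of 57 lay above 0, and 13 of 57 (22.8%) fell by 0.5 or more, against 6.47% of all rows. Row 14336 was 1 of the 2 called lower, with 355, 284 and 311 CPM at 8 h and 120, 143 and 113 CPM at 24 h, a log2 change of -1.33 (SE 0.150, adjusted p = 7.49e-05). Its level with compound 3 at 24 h, 227, 253 and 233 CPM, lay between the DMSO levels at 24 h and 8 h. Of the lowered rows 1 was called higher and 3 lower, with a median of -0.0852.

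In TMD8 with DMSO, 24 h against 8 h, 1 raised row was called higher and 3 lower, where 3.45% and 3.71% of all rows were. Their median change was -0.142, with 19 of 57 above 0. Of the 57, 10 (17.5%) fell by 0.5 or more, against 5.6% of all rows, and 2 (3.51%) rose as much, against 8.94%. Without both TMD8 8 h libraries numbered 1, 2 raised rows (3.51%) were called, beside 2.88% of all rows. Over the 2 lines, 29 of the 57 raised rows (50.9%) lay below 0 with time in both, against 33.2% of the rows that passed both filters. Of the lowered rows 2 were called higher and 4 lower, with a median of 0.0687.

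With the replicate block, 10 raised rows were called lower at 24 h in the OCI-Ly3 DMSO libraries, beside 7.29% of all rows. Same-numbered libraries there correlated across times at 0.318 to 0.699. Of the lowered rows 3 were called higher and 7 lower, beside 3.48% and 7.29% of all rows.

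The 2 lines held most rows, in the lists and among all rows, at different levels without hairpin or compound. In DMSO, over both times, 29 raised rows (50.9%) were called higher and 17 (29.8%) lower in TMD8 than in OCI-Ly3, where 32.1% and 37.5% of all rows were. Their median difference was 0.228, within a range of -2.98 to 4.71. Both named raised rows were higher in TMD8, row 14814 by 1.41 on the log2 scale (SE 0.263, adjusted p = 6.56e-05) and row 14336 by 1.01 (SE 0.106, adjusted p = 2.68e-08). Of the lowered rows 12 were called higher and 12 lower (34.3% each, near the shares of all rows), with a median of -0.11. Row 11015 was lower in TMD8, with a log2 difference of -1.11 (SE 0.180, adjusted p = 1.24e-05), and row 3516 had a difference of 0.24 (SE 0.25, adjusted p = 0.406). Both lists thus held rows that were higher in either line, as did all rows.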

How the data were processed

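Libraries for RNA sequencing were made from mRNA with a kit that keeps the strand (labels' protocols). Per the submitters' processing notes, STAR (no version named) aligned the reads to hg19. Which counter was used, and whether by strand, is not given in the sources used here. Deposited by the authors were CPM per numbered row, scaled to a total larger than the reads in the rows (71.9% to 79.63% of it). Every value was a whole multiple of its library's smallest (100% within 1e-06), which recovers the reads. Reads shared between copies or overlapping genes cannot be told apart.

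Groups and replicate numbers came from sample titles. The members, lists and limits were chosen with earlier results of these data known, and the lists of rows moved in 1 line and the limit of 0.6 after the values were seen. Rows with at least 1 CPM in 3 or more of the 24 compound libraries were tested with limma 3.58.1 in R 4.3.3 (log2(CPM + 1), 1 mean per group, spread shared by all 24 libraries, trended empirical Bayes). edgeR 4.0.16 (TMM, quasi-likelihood) and DESeq2 1.42.0 were run on the recovered reads as alternatives. The limma test alone was tried on simulated counts. These had the same spread for all rows and no shared deviation of same-numbered libraries, unlike the data, so no result rests on them. Correlations across rows are descriptions, since rows share libraries. At most 2 rows per direction were named by number: the row whose smallest hairpin change was largest, and of the others that with the smallest p with compound 3 in OCI-Ly3 at 24 h. The other called rows are given by value alone.

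No files were identical, and the chi-square per degree of freedom between libraries of a group was 1.71 to 96.9, above the sampling noise. Same-numbered compound 3 and DMSO libraries deviated together in OCI-Ly3 at 8 h (correlations 0.715 to 0.808) and 24 h (0.378 to 0.599) and in TMD8 at 8 h (0.75 to 0.921). In TMD8 at 24 h replicate 3 alone did so (-0.179, -0.157 and 0.785). Across times, same-numbered DMSO libraries correlated at 0.318 to 0.699 in OCI-Ly3 and at 0.0862 to 0.39 in TMD8, ranges that overlap. No limit was set for pairing. The labels name no shared batch or day, so the pairing comes from these correlations.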

Additional observations from a re-analysis of the deposited data

How the results depend on the processing

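No called value changed direction under any alternative. A limit of 0.2 gave 165 raised and 105 lowered rows, and a limit of 0.5 gave 7 and 3. Group means in place of medians gave 58 and 44, of which 37 and 24 were among the members. For lowered rows a pseudocount of 0.25 gave 75, and a mean of at least 5 CPM gave 20. Leaving out 1 knockdown library gave 41 to 106 raised and 32 to 51 lowered rows. The most came without OCI-Ly3 shCntrl replicate 2 (106 and 51, with 50 and 26 of the members) and replicate 3 (97 and 48, with 51 and 25), and the causes were not tested. Of the raised rows in OCI-Ly3 at 24 h with compound 3, a mean of at least 5 CPM left 49 rows to test and 3 calls, the replicate block gave 15, and leaving out 1 library 1 to 5. Of all rows, 0.543%, 9.07% and 0.167% to 0.556% were called in these fits. Of the lowered rows there, quantile normalization and the fit without both TMD8 8 h libraries numbered 1 gave 1 call each, DESeq2 2 and the replicate block 8. Of all rows, 0.643%, 1.02%, 1.48% and 9.07% were called in these fits. For the difference between lines the replicate block gave 6 raised and 2 lowered rows, beside 2.07% of all rows. In TMD8 at 24 h, however, the libraries numbered 3 alone deviated together.

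For 24 h against 8 h in OCI-Ly3 DMSO, raised rows had 1 call with no filter, with at least 5 CPM and with quantile normalization, 5 in DESeq2, 4 without both TMD8 8 h libraries numbered 1, and 10 with the replicate block. Lowered rows had 2 with at least 5 CPM, where fewer than 35 were tested, 1 in the fit of the line alone and 10 with the replicate block. The shares of all rows called were 2.23% with no filter, 2.04% with at least 5 CPM, 2.73% with quantile normalization and 6.93% in DESeq2. They were 7.76% without both TMD8 8 h libraries numbered 1, 1.28% in the fit of the line alone and 10.8% with the replicate block. In TMD8, raised rows had 2 calls with no filter and without both 8 h libraries numbered 1, 7 in DESeq2 and 15 with the replicate block. Lowered rows had 3 in the fit of the line alone and without those libraries, and 11 with the replicate block. Same-numbered TMD8 DMSO libraries correlated across times at 0.0862 to 0.39. Of all TMD8 rows, 4.14% were called with no filter, 2.88% without those libraries and 11.8% in DESeq2. The fit of the line alone called 2.17% and the replicate block 20.5%. Leaving out 1 library gave 1 to 5 raised and 0 to 4 lowered calls in OCI-Ly3, and 2 to 4 and 1 to 7 in TMD8. Of all rows, 0.564% to 5.05% were called in OCI-Ly3 and 1.39% to 10.1% in TMD8. For TMD8 against OCI-Ly3, leaving out 1 library gave 42 to 46 and 21 to 25, beside 67.3% to 68.4% of all rows. A mean of at least 5 CPM left 14 lowered rows called, of fewer than 35 tested, beside 67.7% of all rows. Leaving out 1 library gave 0 calls for both lists at 8 h in either line, in TMD8 at 24 h and for the difference between lines, and the replicate block changed no call at 8 h or in TMD8 at 24 h. With about 20 to 41 reads per CPM, rows near 1 CPM rest on few reads.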
